A study of Mus musculus with 2 samples.

Results

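The genes described here are 40 mouse genes of S phase, the part of the cell cycle in which the chromosomes are copied, and of the DNA replication machinery. They are a listed set, close to the S phase genes commonly used to score the cell cycle in single cells, and they were found in the count tables by NCBI gene identifier, without use of their measured values. All 40 were among the 36528 genes of each table. RNA was counted in cultured epidermal cells of C57BL/6 mice taken at postnatal day 1, in 2 single-cell libraries. The wild-type-labelled library came from pooled epidermal cells of 11 Rosa26-CreERT2 neonates, which carry the tamoxifen-inducible recombinase CreERT2 at a locus active in nearly all cell types. The knockout-labelled library came from 9 pooled Bap1fl/fl Rosa26-CreERT2 neonates, whose Bap1 gene the recombinase can delete in any cell of the culture. Bap1 encodes a deubiquitinase of histone H2A. Both pools carried CreERT2 and both received 100 nM 4-OHT, which activates it, for 4 days and then none for 3 days, in medium M254 with a melanocyte growth supplement. With 1 library for each genotype there is no spread between replicates. No test was made, and every interval below is a 95% interval of counting error only.

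Replication begins with licensing, when the origin recognition complex, CDC6 and CDT1 load the MCM helicase onto DNA before S phase. Cyclin E and E2F transcription factors then open S phase, CDC45 and the GINS complex switch the helicase on, and primase with DNA polymerase alpha lays down the first stretch of each new strand. In the epidermis replication takes place mainly in basal keratinocytes, and suprabasal keratinocytes leave the cell cycle as they differentiate.

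Many of these genes are known targets of E2F factors, and the promoters of 4 of them are shown because they hold E2F-type letters in genes that differed in direction below: Mcm6, which was slightly higher in the knockout-labelled library, and Pola1, Prim1 and Dtl, which were lower. Each is the 150 bases before the RefSeq gene start in GRCm38.p6, written 5′ to 3′ on the gene's strand. Capitals mark matches to the letters searched, which were TTTCCCGC, TTTGGCGC, TTTCGCGC and TTTGCCGC and the same letters without the first T, on both strands, where the 7-base form is contained in the 8-base form and matches can overlap. Mcm6 lies at chr1:128359706-128359855, minus strand. Pola1 lies at chrX:93632156-93632305, minus strand. Prim1 lies at chr10:128015065-128015214, plus strand. Dtl lies at chr1:191575545-191575694, minus strand.
Mcm6: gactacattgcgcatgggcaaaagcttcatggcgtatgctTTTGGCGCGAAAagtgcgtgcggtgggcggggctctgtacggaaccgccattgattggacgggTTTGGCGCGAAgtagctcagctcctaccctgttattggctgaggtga
Pola1: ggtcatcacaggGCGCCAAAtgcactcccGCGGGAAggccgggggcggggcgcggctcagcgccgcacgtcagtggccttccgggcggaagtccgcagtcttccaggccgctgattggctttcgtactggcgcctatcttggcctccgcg
Prim1: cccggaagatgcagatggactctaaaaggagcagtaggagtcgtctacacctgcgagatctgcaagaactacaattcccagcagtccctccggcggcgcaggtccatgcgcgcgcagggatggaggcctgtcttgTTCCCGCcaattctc
Dtl: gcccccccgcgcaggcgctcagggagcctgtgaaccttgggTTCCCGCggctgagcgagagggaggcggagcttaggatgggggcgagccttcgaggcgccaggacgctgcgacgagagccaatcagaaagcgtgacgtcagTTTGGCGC

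The search covered a longer window than the one printed, from 250 bases before to 50 bases after each gene start. Of the 40 genes, 30 matched an entry in the RefSeq promoter table. An 8-base match was present in 12 of the 30 (40%), against 4.43% of 12219 genes with at least 20 UMIs and a promoter entry. The 7-base form was present in 22 of the 30 (73.3%), against 18.0% of the same genes. The letters CCAAT, searched on both strands, were in 21 of the 30 (70%) and in 42.7% of the background genes. Among S phase genes at least 1.5-fold lower in the knockout-labelled library, 10 of 12 had the 7-base form, and among the others 12 of 18 had it. A match describes the letters of this window and says nothing of binding.

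The deposited tables held 1926 cells with 77579465 UMIs, the unique molecular identifiers that count RNA molecules, in the wild-type-labelled library, and 1760 cells with 64954113 UMIs in the knockout-labelled library. After filtering, 1912 and 1738 cells were kept, and 3 cell barcodes occurred in both libraries. Bap1 RNA went against the labels, with 1088 UMIs (14.1 CPM, the gene's UMIs over all UMIs of the same cells, on the usual CPM scale) under the wild-type label and 1279 UMIs (19.8 CPM) under the knockout label. The kit counts 3′ ends, and which exons the recombinase removes is not stated in the labels, so this RNA gives no check of the deletion if its counted end lies outside them. Every direction given here rests on the labels, pairs of values stand in the order wild-type label, knockout label, and log2 ratios are knockout over wild type. Cells were clustered without cell cycle genes, and 6 clusters are joined as keratin-rich because no marker set of another cell type named them. Cluster 2 alone carried enough keratinocyte markers at 5-fold over the others, 8 of the suprabasal set. Cluster 1 carried 2 basal markers and clusters 0, 3, 5 and 6 none of either set, so their keratinocyte identity rests on the absence of another name. Of these, clusters 0 and 1 came mostly from the wild-type-labelled library (798 and 377 cells against 95 and 25), and clusters 3 and 5 mostly from the knockout-labelled library (34 and 24 cells against 648 and 535). Smaller groups were Schwann-like, melanocyte-like, myeloid-like and fibroblast-like by their markers, and all these names were rebuilt here.

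Over all cells kept, the S phase genes were lower or close to level in the knockout-labelled library. Their summed level was 656.5 CPM in the wild-type-labelled library and 508.1 CPM in the knockout-labelled library, a log2 ratio of −0.37 (−0.39 to −0.35). Of the 40 genes, 19 were at least 1.5-fold lower and 0 were at least 1.5-fold higher, where 17.7% of all 17096 genes with at least 20 UMIs were lower by that fold and 7.31% were higher. At 2-fold, 13 of the 40 were lower, against 9.39% of all genes. The median log2 ratio of the 40 was −0.56, and that of all genes was −0.02. When each keratin-rich cluster was given equal weight, an alternative chosen after seeing the data, 9 genes were lower and 3 higher and the median was −0.15. Under the same weighting 19.8% of all genes were lower, so that count is near the background. This weighting leans on small groups, with 34 and 24 cells labelled wild type in clusters 3 and 5 and 25 labelled knockout in cluster 1. No interval was computed for it. Tipin at −0.65 lay just inside the 1.5-fold limit and Mcm5 at −0.58 just outside it. The sum mixes the number of cells rich in S phase RNA with the RNA in each of them, and the cells are taken apart below.

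**Figure D1:**
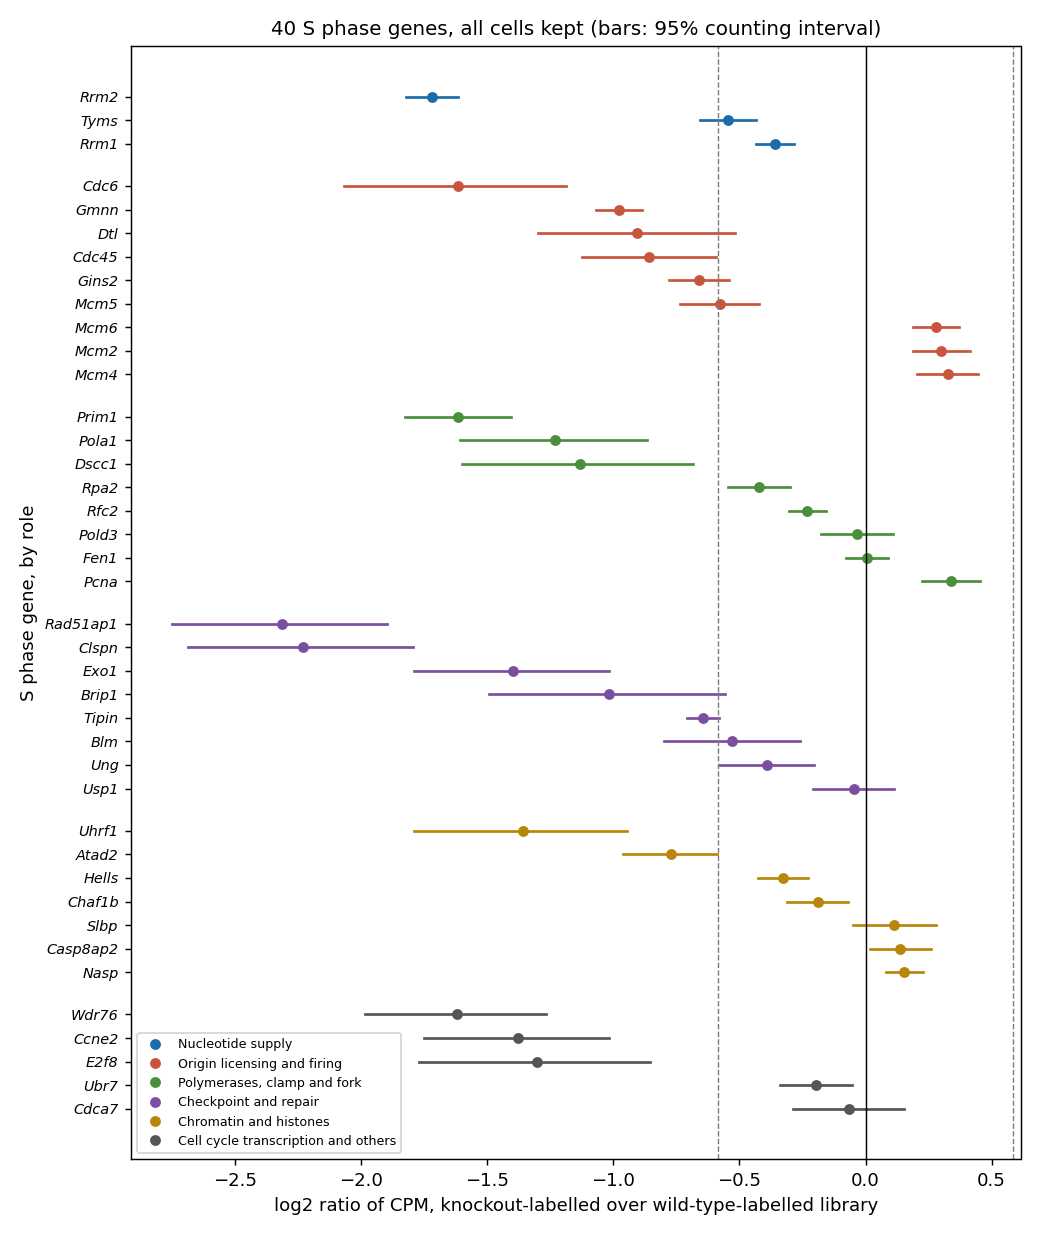
Log2 ratio of CPM, knockout-labelled over wild-type-labelled library, for the 40 S phase genes over all cells kept, grouped and coloured by role. Bars are 95% counting intervals, the solid line is a ratio of 0 on the log2 scale and the dashed lines mark 1.5-fold. Points run from −2.31 for Rad51ap1 to 0.34 for Pcna, and none passes the upper dashed line.

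The genes of nucleotide supply differed most in the small subunit of ribonucleotide reductase. Rrm2 (chromosome 12, 24708254 to 24714146 in GRCm38), which with Rrm1 makes deoxyribonucleotides, had 3685 UMIs (47.6 CPM) in the wild-type-labelled library and 933 UMIs (14.5 CPM) in the knockout-labelled library. This was 3.29-fold lower, a log2 ratio of −1.72 (−1.82 to −1.61). The large subunit, Rrm1, had 48.4 and 37.8 CPM, a log2 ratio of −0.36. Tyms, the thymidylate synthase, had 23.5 and 16.1 CPM, a log2 ratio of −0.54. With each keratin-rich cluster given equal weight, the ratios of Rrm1 and Tyms were 0.09 and 0.01, values without an interval. Over all cells kept, without that weighting, the small subunit thus had a lower ratio than the large subunit and the synthase. The lowest ratio of the 3 genes was −1.01 in cluster 0, −0.31 in cluster 1 and −1.55 in cluster 6.

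Among the genes of origin licensing and firing, the loading and firing factors were lower and 3 subunits of the MCM helicase were slightly higher. Cdc6, which loads the helicase, had 210 and 57 UMIs (2.71 and 0.883 CPM), a log2 ratio of −1.62 (−2.07 to −1.19). Gmnn, the geminin that blocks a second round of licensing, had 3253 and 1376 UMIs (42.02 and 21.3 CPM), a log2 ratio of −0.98 (−1.07 to −0.89). Dtl, the substrate receptor of the ubiquitin ligase that removes CDT1 in S phase, had 182 and 81 UMIs and a log2 ratio of −0.91. Cdc45 and Gins2, partners of the active helicase, had log2 ratios of −0.86 and −0.66, from 376 and 173 UMIs and from 1694 and 894 UMIs.

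The MCM helicase is a ring of MCM2 to MCM7, and its genes did not move as a unit. Mcm2 had 15.8 and 19.5 CPM (log2 ratio 0.30, 0.19 to 0.42). Mcm4 had 14.1 and 17.6 CPM (0.33, 0.21 to 0.45). Mcm6 had 24.3 and 29.5 CPM (0.28, 0.19 to 0.37). All 3 intervals lay above 0, and all 3 ratios stayed above 0 under every alternative run. Mcm5 had 12.3 and 8.26 CPM (log2 ratio −0.58, −0.73 to −0.42). Outside the 40 genes, Mcm7 had 27.6 and 40.9 CPM (0.57, 0.48 to 0.65), and Mcm3, named here after its value was seen to complete the ring, had 16.4 and 15.6 CPM (−0.08, −0.20 to 0.04).

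The genes of polymerases, clamp and fork spread from −1.62 to 0.34. Prim1, the catalytic subunit of primase, had 875 UMIs (11.3 CPM) and 238 UMIs (3.69 CPM), 3.06-fold lower in the knockout-labelled library. Pola1, the catalytic subunit of polymerase alpha that works with primase, had 237 and 84 UMIs, a log2 ratio of −1.23 (−1.61 to −0.87). Dscc1, part of a complex that loads the PCNA clamp, had 150 and 57 UMIs, a log2 ratio of −1.13. This ratio turned to 0.35, a value without an interval, when each keratin-rich cluster was given equal weight. At the other end, Pcna, the sliding clamp itself, had 1188 UMIs (15.3 CPM) and 1252 UMIs (19.4 CPM), a log2 ratio of 0.34 (0.22 to 0.45). Fen1, the flap nuclease of lagging-strand maturation, had 33.4 and 33.6 CPM, and Pold3, a subunit of polymerase delta, 11.7 and 11.5 CPM. Rpa2, of the protein that coats single-stranded DNA, and Rfc2, of the clamp loader, had log2 ratios of −0.42 and −0.23, and that of Rfc2 was 0.02 after thinning to 8000 UMIs per cell. Prim1 and Pola1, which start a strand, were therefore lower, and the clamp Pcna was slightly higher.

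Checkpoint and repair held the largest ratios of the list. Rad51ap1 (chromosome 6, 126923415 to 126939621), a gene of homologous recombination repair, had 328 UMIs (4.24 CPM) in the wild-type-labelled library and 55 UMIs (0.852 CPM) in the knockout-labelled library, a log2 ratio of −2.31 (−2.75 to −1.90). Clspn, the claspin that relays a stalled fork to the kinase CHK1, had 287 UMIs (3.71 CPM) and 51 UMIs (0.790 CPM), a log2 ratio of −2.23 (−2.69 to −1.80). In the knockout-labelled library the cell with the most Rad51ap1 UMIs held 9.09% of them, and the corresponding share for Clspn was 9.80%. Exo1, an exonuclease of mismatch and break repair, had 237 and 75 UMIs (−1.40), and Brip1, a helicase that binds BRCA1, had 136 and 56 UMIs (−1.02). Tipin, of the complex that stabilises forks, had 75.5 and 48.2 CPM (−0.65, −0.71 to −0.58). Blm, the Bloom syndrome helicase, had a log2 ratio of −0.53, the uracil glycosylase gene Ung had −0.39 and the deubiquitinase gene Usp1 had −0.05.

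The chromatin and histone genes were the nearest to level, with a median log2 ratio of −0.19. Uhrf1, which brings the maintenance DNA methyltransferase to newly copied DNA, had 197 and 64 UMIs (−1.36, −1.79 to −0.95), and Atad2, a chromatin ATPase, had 724 and 353 UMIs (−0.77, −0.96 to −0.59). Nasp, a chaperone of histone H3, had 39.1 and 43.5 CPM (0.15), and Slbp, which binds the stem-loop of histone mRNA, had 8.29 and 8.97 CPM (0.11, −0.05 to 0.28). Casp8ap2, needed for histone gene expression, had a log2 ratio of 0.14. Hells, a chromatin remodeller, and Chaf1b, of the chromatin assembly factor that places histones behind the fork, had −0.33 and −0.19. The ratios of Hells and Chaf1b turned to 0.30 and 0.20 without the cells described below as rich in S phase RNA.

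Of the remaining genes, E2f8, an E2F repressor of late S phase, had 163 and 55 UMIs (−1.30), and Ccne2, the cyclin E2 gene, had 259 and 83 UMIs (−1.38). Wdr76 had 310 and 84 UMIs (−1.62, −1.99 to −1.27). Cdca7, which acts with Hells, had 4.99 and 4.76 CPM (−0.07), and Ubr7 had 12.2 and 10.7 CPM (−0.20). The 5 ratios nearest to 0 in the list were those of Fen1, Pold3, Usp1, Cdca7 and Slbp.

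A further list of 77 replication genes outside the 40 had a median log2 ratio of −0.25. It gave 22 lower and 0 higher at 1.5-fold, where 17.7% of all genes were lower and 7.31% higher. Among its lowest ratios were those of E2f7, an E2F repressor like E2f8 (138 and 29 UMIs, −1.99), and Ticrr, which helps to fire origins (82 and 18 UMIs, −1.92). Its highest belonged to Mcm7, Chtf8 of a clamp-loading complex (0.39) and Orc3 of the origin recognition complex (0.33). A list of 55 G2 and M phase genes gave 40 lower and 0 higher beside the same shares of all genes, with a median of −1.47. In it, Top2a, which untangles replicated DNA, had 30.7 and 7.01 CPM, Cdk1, the kinase of mitotic entry, 82.8 and 25.1 CPM, Mki67, the proliferation marker, 5.77 and 1.77 CPM, and Ube2c, which works with the mitotic ubiquitin ligase, 143 and 39.3 CPM. The 3 lists share the same libraries and are given side by side, not as separate evidence.

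To count cells rich in S phase RNA, every cell was thinned to 8000 UMIs and the S phase genes with a UMI were counted. The median was 3 of 40 in both libraries and the maximum 26. At least 10 genes were found in 167 of 1912 cells (8.73%, Clopper-Pearson interval 7.51% to 10.1%) of the wild-type-labelled library and in 61 of 1738 cells (3.51%, 2.70% to 4.49%) of the knockout-labelled library. These are called S-rich cells, a name for their RNA, since DNA synthesis was not measured. The limit of 10 cuts a continuous range, with 49 and 30 cells at 9 or 10 genes. At a limit of 6 genes the shares were 17.5% and 15.1%, and at 14 genes 4.86% and 1.55%, from 93 and 27 cells. The share under the knockout label over that under the wild-type label was thus 0.860 at 6 genes, 0.402 at 10 and 0.319 at 14. In the suprabasal cluster 2, led by Sprr1a and Sprr2d, where replication should be rare, 1 of 288 and 0 of 188 cells were S-rich (0.347%, and up to 1.94% for the count of 0), at median depths of 35895 and 37398.5 UMIs.

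**Figure D2:**
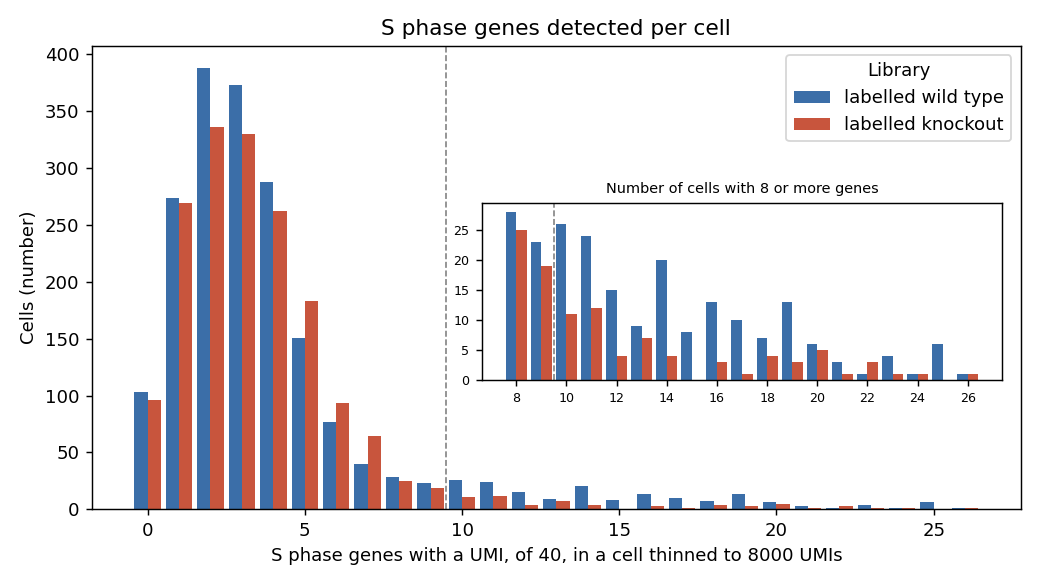
Number of cells by the number of S phase genes with a UMI, of 40, in cells thinned to 8000 UMIs, with the cells at 8 or more genes enlarged in the inset. Both libraries have most cells at few genes (median 3), and to the right of the dashed line at 10 genes stand 167 cells labelled wild type and 61 labelled knockout.

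S-rich cells held 42.3% of the S phase UMIs of the wild-type-labelled library and 20.4% of those of the knockout-labelled library after thinning. Such a cell had a median of 24 S phase UMIs under the wild-type label and 20 under the knockout label, and other cells had 3 in both. Before thinning the S-rich cells had a median depth of 36252 UMIs in the wild-type-labelled library and 18812 in the knockout-labelled library, where the shallow Schwann-like and melanocyte-like cells made up more of them. The part of depth in the difference was not tested beyond the thinning.

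For a gene alone, shares of cells with a UMI at 8000 UMIs must be read against the suprabasal cluster. Rrm2 was found in 17.5% (15.8% to 19.2%) of cells labelled wild type and 7.88% (6.66% to 9.25%) of cells labelled knockout, and in 9.03% and 6.91% of cells of cluster 2. The share under the knockout label was thus within counting error of that in cluster 2. Mcm6 was found in 14.5% and 18.9% of cells, and in 9.38% and 12.2% of cluster 2. Rad51ap1 was found in 3.19% and 1.09% of cells, and in 0.347% and 0% of cluster 2, where 0 of 188 cells allows up to 1.94%.

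S-rich cells were spread unevenly over the cell classes. Among keratin-rich cells they were 121 of 1748 (6.92%, 5.78% to 8.22%) in the wild-type-labelled library and 33 of 1595 (2.07%, 1.43% to 2.89%) in the knockout-labelled library. Among Schwann-like cells they were 25 of 60 (41.7%) and 16 of 36 (44.4%), with intervals of 29.1% to 55.1% and 27.9% to 61.9% that overlap widely. Among melanocyte-like cells they were 9 of 21 (42.9%) and 12 of 56 (21.4%), again with overlapping intervals. Fibroblast-like cells gave 8 of 47 (17.0%) and 0 of 31, and myeloid-like cells 4 of 36 (11.1%) and 0 of 20. The intervals of the counts of 0 reach 11.2% and 16.8%. Keratin-rich cells were 72.5% of the S-rich cells labelled wild type and 54.1% of those labelled knockout. Within cluster 0 the S-rich cells were 46 of 798 (5.76%) and 7 of 95 (7.37%). Cluster 1 gave 57 of 377 (15.1%) and 3 of 25 (12%). Cluster 6 gave 17 of 227 (7.49%) and 2 of 104 (1.92%). In each of these clusters the intervals overlap. Clusters 3 and 5 gave 0 of 34 and 0 of 24 cells labelled wild type. Under the knockout label they gave 16 of 648 and 5 of 535. The pooled keratin-rich shares thus mix clusters that the libraries fill unequally.

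**Figure D3:**
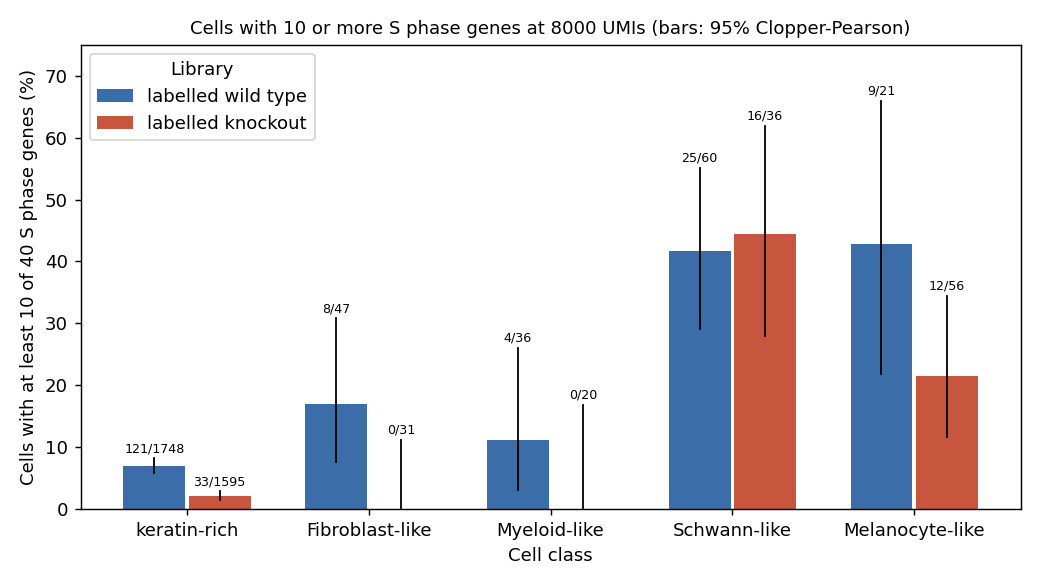
Share of cells with at least 10 of the 40 S phase genes at 8000 UMIs, by cell class and library, with 95% Clopper-Pearson intervals and the cell counts above them. Keratin-rich cells stand at 6.92% and 2.07% with separate intervals, and Schwann-like cells at 41.7% and 44.4% with overlapping ones. The keratin-rich bars pool clusters that the libraries fill unequally.

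The summed level of the 40 genes followed the classes. Schwann-like cells had 2217 CPM in the wild-type-labelled library and 2072 CPM in the knockout-labelled library, a log2 ratio of −0.10 (−0.21 to 0.02). In these cells Prim1 had 57.6 and 75.6 CPM and Mcm6 had 118 and 137 CPM, with intervals of the ratio that include 0, and Rrm2 had 214 and 140 CPM (−0.61, −1.06 to −0.19). Melanocyte-like cells had 2150 and 1299 CPM in sum (−0.73, −0.89 to −0.57), and the 22 genes with at least 20 UMIs there had a median log2 ratio of −0.71, beside 0.03 for all genes. Fibroblast-like cells had 972 and 363 CPM (−1.42, −1.60 to −1.24), with Gmnn at 49.4 and 4.63 CPM from 68 and 4 UMIs. Myeloid-like cells had 753 and 297 CPM (−1.34, −1.65 to −1.04), with Gmnn at 76.7 and 14.02 CPM from 60 and 5 UMIs. The fibroblast-like cluster also carried 5 of 6 muscle markers, 3 mast cell markers and 2 T cell markers, each 5-fold or more above the mean elsewhere. What part such cells have in its values was not tested. Genes that pass the UMI minimum in so few cells are not the whole list.

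In keratin-rich clusters 0, 1, 2 and 6 the log2 ratio of the sum lay between −0.27 and −0.05, nearer to 0 than the −0.35 of all keratin-rich cells together. The sum was 579 CPM in the wild-type-labelled library and 560 CPM in the knockout-labelled library in cluster 0, led by the chemokine genes Cxcl5, Ccl20 and Cxcl1, and 912 and 836 CPM in cluster 1, led by Nppb and Igfbp2. In cluster 2 it was 345 and 309 CPM, and in cluster 6 it was 650 and 540 CPM. In cluster 3, led by Acta2 and Krt18, and cluster 5, led by Obp2a and Odam, the knockout-labelled library was higher, with 327 and 502 CPM and with 416 and 500 CPM. Clusters 2 and 6 alone had at least 100 cells of each library, with median log2 ratios of −0.11 and −0.40 over the 32 and 33 genes with at least 20 UMIs, beside −0.01 and −0.12 for all genes there. The value of cluster 6 was 0.40 when the clusters were made with the cell cycle genes. In cluster 6 Rrm2 had 44.4 and 15.2 CPM and Gmnn 39.9 and 21.9 CPM, while Mcm6 had 19.9 and 35.7 CPM.

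**Figure D4:**
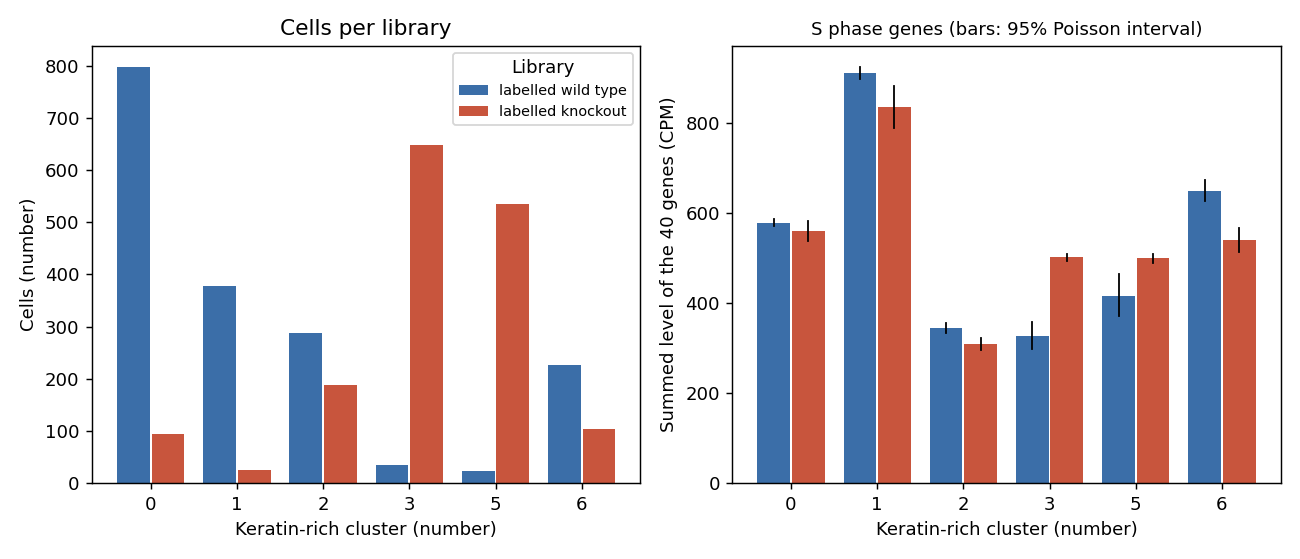
Left, number of cells of each library in the 6 keratin-rich clusters. Right, summed CPM of the 40 S phase genes in the same clusters with 95% Poisson intervals. Clusters 0 and 1 hold most cells labelled wild type and clusters 3 and 5 most cells labelled knockout, and within clusters 0 and 1 the summed levels are 579 and 560 CPM and 912 and 836 CPM.

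Some genes kept 1 direction in all 6 keratin-rich clusters. The share of all genes that do so was not computed, so their number says nothing of the list. Pcna, Fen1, Mcm2 and Mcm6 had the higher value in the knockout-labelled library in 6 of 6 clusters, with intervals above 0 in 4, 2, 4 and 5 of them. Mcm6 had 21.3 and 33.1 CPM in cluster 0, 33.0 and 47.8 CPM in cluster 1, 13.0 and 14.1 CPM in cluster 2 and 23.7 CPM against 10.6 CPM, from only 8 UMIs, in cluster 5. Prim1, Rpa2 and Blm had the lower value in 6 of 6, with intervals below 0 in 3, 0 and 0 of them. Prim1 had 9.61 and 3.83 CPM in cluster 0, 7.88 and 2.72 CPM in cluster 2 and 7.61 and 2.48 CPM in cluster 6. Rrm2 was lower in 5 of 6, with intervals below 0 in 3, and was higher, with an interval that includes 0, in cluster 3 (10.4 and 15.9 CPM from 15 and 451 UMIs). The clusters share 1 library for each genotype and are not replicates.

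To compare cells rich in S phase RNA with a measure that did not choose them, 20 of the genes selected the cells. These 20 were the odd places in alphabetical order, and the other 20 were measured. With at least 5 of the 20 at 8000 UMIs, 194 and 93 cells were selected. The measured genes then had 1251 CPM in the wild-type-labelled library and 906 CPM in the knockout-labelled library (log2 ratio of the sum −0.47, −0.53 to −0.40), with a median of −0.31 beside 0.06 for all genes. In the other 1718 and 1645 cells they had 212 and 209 CPM (−0.02, −0.06 to 0.01). With the even places selecting, the selected cells had 1172 and 857 CPM (−0.45, −0.52 to −0.39) and the others 239 and 240 CPM. With at least 7 of the odd 20, only 108 and 38 cells were selected, and the sum was 1661 and 1583 CPM (−0.07, −0.15 to 0.01). At that limit the selected cells had median depths of 27753.5 and 16401 UMIs. With at least 7 of the even 20, 92 and 33 cells were selected and the sum was higher under the knockout label, at 1543 and 1716 CPM (0.15, 0.07 to 0.24). Among keratin-rich cells alone this last selection gave 0.13 (0.03 to 0.23) in 63 and 15 cells, at median depths of 47952 and 47582 UMIs. The odd selection at 7 gave −0.12 (−0.22 to −0.03) among them, in 66 and 17 cells. The lower level in selected cells thus held at a limit of 5 genes with either selection. At 7 over all cells kept, the odd selection gave an interval that includes 0 and the even one the opposite direction. At 7 among keratin-rich cells, the odd and even selections went opposite ways.

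The same selection shows how far each gene was restricted to the selected cells. Each gene was measured in cells selected with the 20 it was not part of. In the wild-type-labelled library, Dscc1 was 32.4-fold higher in selected cells than in the others, Clspn 27.7-fold and Rad51ap1 25.3-fold, and 78.7%, 76.7% and 75% of their UMIs lay in those cells. Rrm2 was 15.9-fold higher. Pcna was 3.43-fold higher and Mcm4 4.25-fold, and Ubr7 and Slbp were 1.65-fold and 1.70-fold higher. Genes more restricted to selected cells had lower ratios between the libraries. Over the 40 genes Pearson's r was −0.76 and Spearman's rho −0.75, a description across genes that share cells and the wild-type-labelled library on both axes, and genes are not independent replicates. The selected cells were 10.1% and 5.35% of all cells with the odd places selecting, and 9.78% and 5.06% with the even. Some such relation follows from these shares alone, and how far it goes beyond them was not tested.

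**Figure D5:**
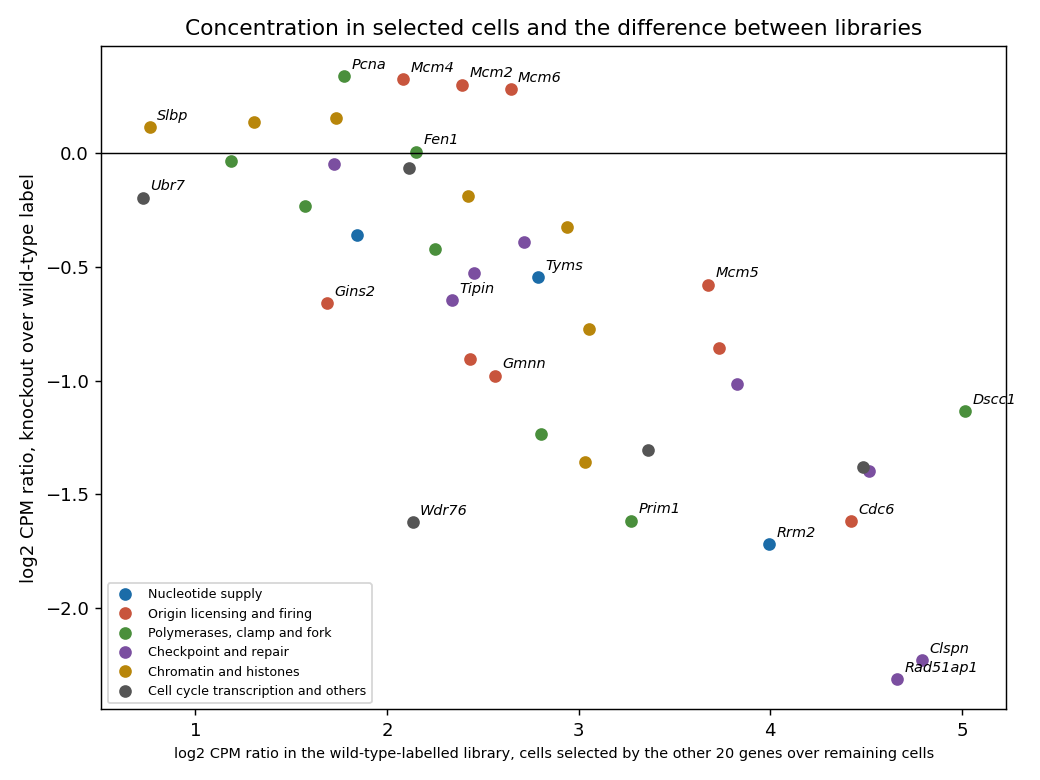
Horizontal axis, log2 CPM ratio between cells selected by the other 20 S phase genes and the remaining cells of the wild-type-labelled library. Vertical axis, log2 CPM ratio of the knockout-labelled library over the wild-type-labelled library in all cells kept. Each point is 1 of the 40 genes coloured by role, and genes to the right, such as Clspn and Rad51ap1, lie lower than Slbp or Pcna to the left.

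Outside the selected cells the genes went in both directions. Mcm6 had 15.6 CPM in those cells of the wild-type-labelled library and 25.8 CPM under the knockout label (log2 ratio 0.72, 0.61 to 0.84). Mcm4, Pcna, Mcm2 and Nasp had 0.60, 0.59, 0.58 and 0.38. Clspn had 0.968 and 0.194 CPM from 67 and 12 UMIs (−2.32, −3.34 to −1.42), and Rad51ap1, Wdr76, Cdc6 and Prim1 had −1.67, −1.53, −1.29 and −1.27. Inside the selected cells Rrm2 had 294 and 129 CPM (−1.19, −1.36 to −1.03), Prim1 58.0 and 27.8 CPM (−1.06, −1.41 to −0.72) and Rad51ap1 30.02 and 11.5 CPM (−1.38, −1.96 to −0.85). Mcm2 had 57.8 and 78.8 CPM there (0.45, 0.22 to 0.68). At the limit of 5 genes, the licensing genes Mcm2, Mcm4 and Mcm6 were thus higher under the knockout label in both sets of cells. Rrm2, Prim1 and Rad51ap1 were lower in both. Single genes were compared at this limit alone, and at 7 genes the lower sum in selected cells did not hold over all cells kept.

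S-rich cells also differed in a readout that did not choose them, the G2 and M phase genes. At least 10 of the 55 were found in 144 of the 167 S-rich cells labelled wild type (86.2%, 80.1% to 91.1%) and in 29 of the 61 labelled knockout (47.5%, 34.6% to 60.7%). The median number of these genes was 23 and 9 in S-rich cells, and 6 in both libraries in the remaining cells. Among keratin-rich S-rich cells the counts were 104 of 121 (86.0%) and 14 of 33 (42.4%), and among Schwann-like ones 24 of 25 (96.0%, 79.6% to 99.9%) and 10 of 16 (62.5%, 35.4% to 84.8%). Among melanocyte-like ones they were 5 of 9 (55.6%, 21.2% to 86.3%) and 5 of 12 (41.7%, 15.2% to 72.3%), with intervals that overlap widely. Seen over all cells, those with both sets were 7.53% and 1.67%, and those with S phase genes alone were 1.20% and 1.84%. Cells with G2 and M genes alone were 7.11% and 5.70%. These shares depend on the limit, since 162 and 170 cells stood at 9 or 10 of the G2 and M genes. Cells with at least 10 of these genes, S-rich or not, were 14.6% and 7.36%, and with at least 14 they were 8.94% and 1.90%. Both sets were crossed at the limit of 10 alone. At that limit the excess of S-rich cells in the wild-type-labelled library lay in the cells that held both sets. The part of phase length, cell number and depth was not tested.

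Detection of the genes in the same cell was compared with the product of their separate shares. Of the 40 genes, 29 were found in at least 20 cells of each library at 8000 UMIs, and these make 406 pairs. The 11 left out were Brip1, Ccne2, Cdc6, Clspn, Dscc1, Dtl, E2f8, Exo1, Rad51ap1, Uhrf1 and Wdr76, all at least 1.5-fold lower. The ratio of observed to product was above 1 in 400 pairs in the wild-type-labelled library and in 380 in the knockout-labelled library, with medians of 1.77 and 1.46. How many pairs of other genes pass 1 was not computed, so these counts have no background. The cells also pool classes whose levels of these genes differ. The highest in the wild-type-labelled library was Prim1 with Cdc45, found together in 27 cells where the product gives 5.31, a ratio of 5.08, and 7.41 under the knockout label. It was followed by Cdc45 with Pola1 (5.02, and 5.81 under the knockout label), Atad2 with Pola1 (4.77 and 3.93), Mcm5 with Prim1 (4.67 and 6.88) and Cdca7 with Cdc45 (4.49 and 4.93). Pairs that include Slbp, Ubr7 or Rfc2 had medians of 1.25, 1.35 and 1.37 in the wild-type-labelled library. The pairs share cells and genes, and a ratio in so few cells is a description.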

How the data were processed

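Single-cell RNA was counted in 1 library per genotype. For each library the authors deposited a table of counts with genes down and cell barcodes across, per the file headers, and its values are whole numbers taken here as UMIs. The submitters' processing notes name mm10, Cell Ranger 2.1 and Seurat 2.0 without their roles, and how intronic or antisense reads were counted is not given in the sources used here. Gene identifiers were matched to RefSeq GRCm38.p6 (31049 of 36528, the 5479 others holding 2.67% of UMIs and staying in totals). Cells needed 500 genes and at most 10% mitochondrial UMIs (13 and 16 removed), and Scrublet at a doublet rate of 0.02 marked 1 and 7 cells (0.0519% and 0.398%), too few to count as a working doublet call.

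Both libraries were clustered together in scanpy 1.11.5 by Leiden (resolution 0.5, 30 components, 15 neighbours, 2000 genes) after leaving out 672 genes, those of the cell cycle lists and any correlated with them above 0.2. Names needed 3 markers at 5-fold, and more than any other set gave. All clusters that no set of a non-keratinocyte type named are termed keratin-rich. Counts were summed to CPM. A gene was measured from 20 UMIs over both libraries and called at 1.5-fold. Named genes are all 40, with the 3 highest and 3 lowest further replication genes from 100 UMIs, 4 G2 and M genes, Bap1 and the 5 pairs detected together most beyond the product. The values of 1 further replication gene that the rule names are not reported here. Intervals are exact (Poisson, conditional or Clopper-Pearson, 95%), floors are 3 counts, and no p-value was computed. The genes and lists were chosen with earlier results of these data known. The scripts were tested on simulated data. Software was Python 3.11.15, numpy 2.4.6, scipy 1.17.1, pandas 2.3.3, anndata 0.12.19, igraph 0.11.9, scikit-learn 1.9.0 and matplotlib 3.10.9.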

Additional observations from a re-analysis of the deposited data

Results flagged for a closer look

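In 2 keratin-rich clusters the summed S phase genes went the opposite way to the −0.37 of all cells kept. The log2 ratio of the library labelled knockout over the library labelled wild type was 0.62 (0.48 to 0.75) in cluster 3 and 0.26 (0.10 to 0.43) in cluster 5. The side labelled wild type rests on 34 and 24 cells there, with 471 and 315 S phase UMIs. The difference from the other clusters was not tested.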

How the results depend on the processing

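The median log2 ratio of the 40 genes stayed between −0.59 and −0.44 under other cell filters, doublets kept, a common UMI minimum, keratin-rich cells alone, centring, equal weight for each cell, the top cell left out, thinning and other UMI minimums, with 16 to 20 genes lower at 1.5-fold and 13 at 2-fold. Alternatives chosen after seeing the data moved it: −0.15 with 9 lower and 3 higher when each keratin-rich cluster had equal weight (19.8% of all genes lower), and −0.13 with 12 lower and 3 higher without the S-rich cells (17.1% of all genes lower). Single genes gave 520 values, of which 437 stayed within counting error, 81 moved and 2 reversed, both of Dscc1 (0.35 and 0.37, under the same alternatives). Of the 81, 30 moved with equal weight for each keratin-rich cluster and 28 without the S-rich cells. The other UMI minimums could not change the ratios of the 40 genes or their median, since every gene passed them. The S-rich share was 6.92% and 2.07% in keratin-rich cells, 17.5% and 15.1% at 6 genes, 4.86% and 1.55% at 14 genes, 0.889% and 0.115% at 2000 UMIs per cell, 56.6% and 49.7% without thinning and 53.6% and 54.5% when the further replication genes, many of them broadly expressed, selected the cells. The median of cluster 6 was 0.40 in its match of 213 and 97 cells among clusters made with cell cycle genes. In selected cells the median was −0.58 with the even places selecting, −0.71 at 3 genes and 0.088 at 7, and in the other cells −0.30 at 7. The causes were not tested. No library could be left out, with 1 per genotype. No paired analysis was possible, because each genotype gave 1 pooled library of different neonates. Depth limits the precision of genes with few UMIs, as their intervals show.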
